A study of Xenopus laevis with 24 samples.

Results

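The genes described here are 300 of the 44478 genes measured in cultured foregut tissue of the frog Xenopus laevis. They were chosen by their RNA levels, because they stayed within a narrow range in control tissue over 3 stages and were high at the last stage when the transcription factor Rfx6 was blocked. Levels are in TPM, a unit that corrects read numbers for transcript length and sequencing depth, and the choice used log2(mean TPM of 3 replicates + 1). A gene qualified when its 3 control stages spanned less than 1, when rfx6 morphants exceeded controls by at least 0.8 at stage NF38 but by less than 0.8 at NF33, and when the drug BMS493 lowered it by less than 0.8 at NF25. The control range was met by 36260 genes, 479 of these also passed the NF38 condition, 349 the NF33 condition as well, and 344 all conditions. The 300 with the highest NF38 difference were kept, which left out 44.

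The study cut foregut mesoderm and endoderm from wild-type embryos (NXR_0031) at stage 15 of Nieuwkoop and Faber (NF15) and kept the explants in culture at 15 °C until the stages NF25, NF33 and NF38. Controls had received 2.5 ng of a morpholino with 5 mismatched bases and were kept in 0.1% DMSO. The rfx6 morphants had received 2.5 ng of a translation-blocking morpholino, an antisense oligonucleotide that keeps a messenger RNA from being translated, at the 2-cell stage. Other explants were treated right after dissection with BMS493 at 250 nM, a compound that acts on retinoic acid receptors as an inverse agonist. The labels do not say whether morphants were kept in DMSO or whether BMS493 explants carried the mismatch morpholino. Controls and morphants were available at all 3 stages and BMS493 explants at NF25 and NF33, in 8 groups of 3 libraries. Each library pooled 8 explants, so differences between single explants were averaged, and the parents of the embryos are not named.

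Rfx6 is a winged-helix transcription factor of the RFX family. In mouse and human it is required for the formation of hormone-producing cells of the pancreas, and it is expressed in early gut endoderm. Retinoic acid, made from vitamin A, binds nuclear receptors and helps to set up regions along the gut tube, and BMS493 holds these receptors in a repressive state. The question that the design addresses is how foregut gene expression changes as the tissue develops and when either Rfx6 or retinoic acid signalling is blocked.

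The deposited tables identify genes by numbers (XBXL10_1g followed by digits) and 0 of the 300 members matched a RefSeq table of 44456 genes (assembly Xenopus_laevis_v10.1). Members are therefore given by identifier, without a function, a sequence or a position, and the planned check of cell type markers and of rfx6 RNA was not run. Xenopus laevis has a duplicated genome, so reads may be split between copies of nearly the same sequence. Total counts per library were between 19433955 and 31005048. Counts were tested with edgeR's quasi-likelihood test over all 28313 genes that passed a filter on low counts, and a call means an adjusted p (Benjamini-Hochberg) under 0.05. Of the members, 271 were tested and 29 had too few reads, with at most 26 counts in any library. In pooled explants, fewer cells of a type and less RNA per cell cannot be told apart.

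Most of the members that were high in TPM at NF38 were also high in read counts. Of the 271 tested members, 244 were called higher in rfx6 morphants at NF38 and 215 were higher by at least 2-fold, 25 were not called and 2 were called lower. Over all genes tested, 25.4% were called higher and 9.01% were higher by at least 2-fold. The rule chose the members on this contrast, so these counts describe them and test nothing. The 244 count-raised members had a median log2 fold change of 1.49, also with the 2 that had no control count set at their bound. The lowest was 0.32, and the highest among the 237 members with more than 3 counts in the NF38 controls was 5.52. In TPM, the 3 morphant NF38 libraries lay above the 3 NF38 controls in 251 of the 300 members (16.2% of all genes), above all 9 control libraries in 207 (6.04%) and above all 21 other libraries in 133 (3.47%). In CPM, which scales counts for depth but not length, the numbers were 257 (20% of all genes), 231 (8.44%) and 164 (5.5%).

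The members were mostly weakly expressed genes. In NF38 controls, 29 had a mean of at most 0.1 TPM, 99 lay between 0.1 and 1 TPM, 126 between 1 and 10, 42 between 10 and 100, and 4 above 100. The median member level was 1.46 TPM in NF25 controls, 1.39 in NF33 controls and 1.42 in NF38 controls. It was 1.61, 1.96 and 4.62 TPM in morphants at the same stages. The group with the highest mean TPM was rfx6 NF38 for 229 members, rfx6 NF33 for 29, BMS493 NF25 for 20, rfx6 NF25 for 15 and BMS493 NF33 for 7, and a control group for 0. The rule favours this order, since it asked for high NF38 morphants and a narrow control range.

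Several members were close to silent in controls and present in every morphant library at NF38. XBXL10_1g5411 stood at 6.64, 6.03 and 5.39 TPM in morphants and at 0.27, 0.10 and 0 TPM in controls. XBXL10_1g2870 stood at 8.86, 5.35 and 6.26 TPM against 0.08, 0.91 and 0.53. In both members the NF38 groups did not overlap, and no library of controls at any stage reached 1 TPM. XBXL10_1g42175 had no count in any NF38 control library and 251 counts over the 3 morphant libraries (3.97, 3.64 and 3.73 TPM), which is at least 81.8-fold higher against a floor of 3 counts over the group.

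**Figure D1:**
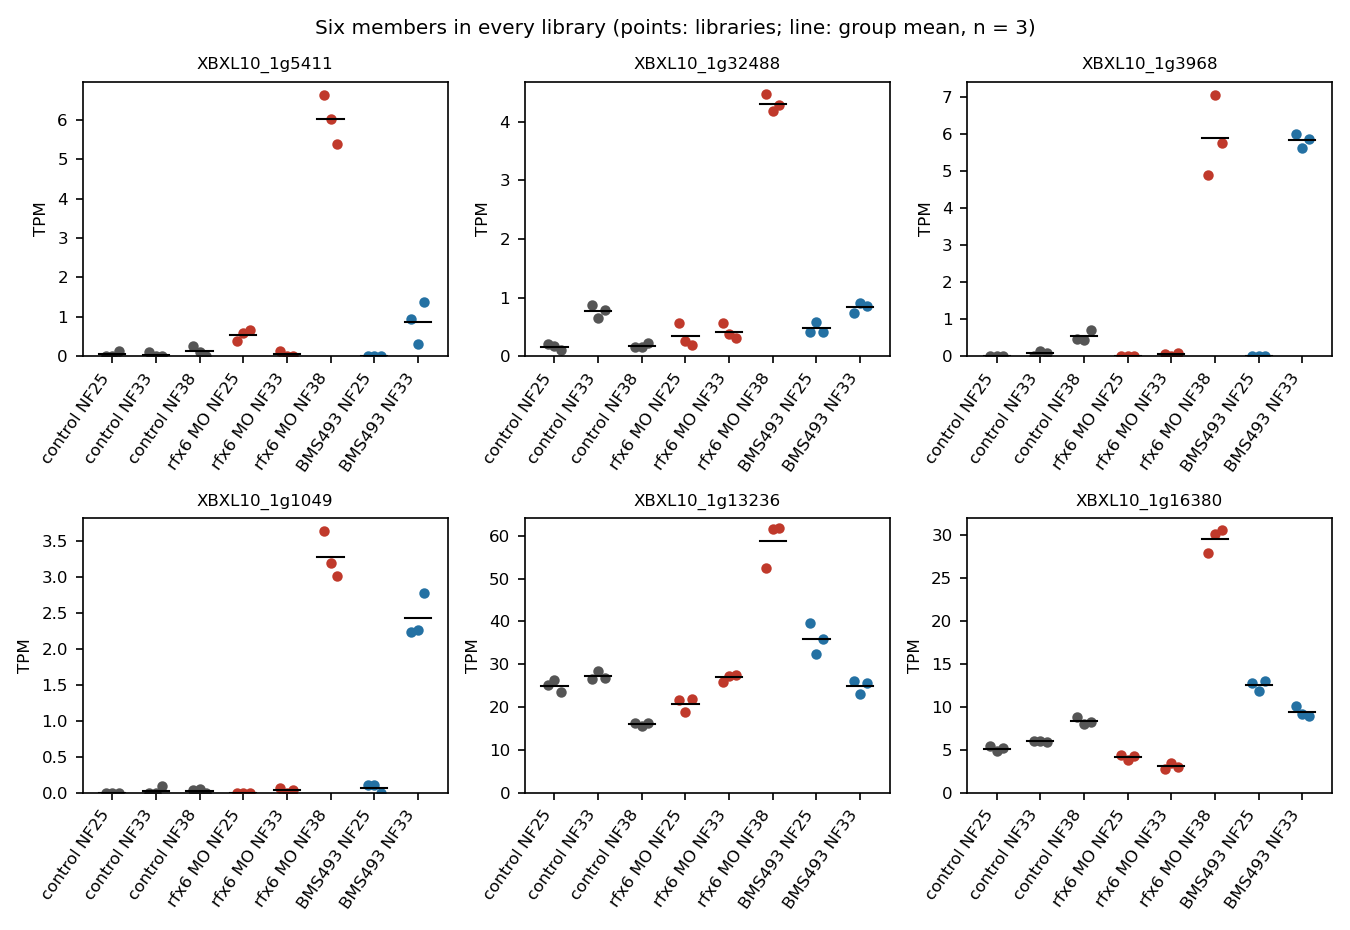
TPM of 6 members in each of the 24 libraries, one point per library and a line at each group mean (n = 3). In all 6 the morphant NF38 libraries lie above every control library. All 6 belong to a set chosen for this separation, which 207 of the 300 members had. The BMS493 NF33 libraries reach the morphant NF38 range in XBXL10_1g3968 but stay close to their NF33 controls in XBXL10_1g32488 and XBXL10_1g13236.

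Other members had a low but measurable level in controls at more than 1 stage. XBXL10_1g32488 was at 4.47, 4.18 and 4.28 TPM in morphants and 0.15, 0.16 and 0.23 in controls at NF38. Its log2 fold change on counts was 4.71, and its NF33 controls, at 0.87, 0.66 and 0.79 TPM, were the highest control libraries. XBXL10_1g28315 was at 3.41, 3.36 and 3.74 TPM against 0.01, 0.20 and 0.11. XBXL10_1g28315 was named because its NF38 morphants lay above all 9 control libraries, as were XBXL10_1g13236 and XBXL10_1g18691, so their separation is a description of that choice.

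Of the 42 members between 10 and 100 TPM in NF38 controls, 40 had NF38 groups that did not overlap in TPM, beside the 16.2% of all genes above. The rule chose members on these same values, so this count describes the choice and tests nothing. XBXL10_1g13236 had 52.47, 61.69 and 61.84 TPM in morphants and 16.33, 15.53 and 16.38 in controls at NF38. Its NF25 controls (25.2, 26.37 and 23.46 TPM) and NF33 controls (26.63, 28.44 and 26.86 TPM) were higher than its NF38 controls, so the NF38 difference was measured against the lowest of its control levels. The morphant NF38 libraries still exceeded all 9 controls. XBXL10_1g18691 had 50.09, 48.98 and 51.36 TPM against 14.9, 12.84 and 16.44.

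The 3 members with the highest NF38 control level differed less in fold. XBXL10_1g38818 had 1583.69, 1486.38 and 1505.84 TPM in morphants and 578.92, 599.26 and 592.8 in controls, a log2 fold change of 1.42. Its morphant NF33 libraries, at 1870.71, 1738.96 and 1699.5 TPM, were higher still, beside NF33 controls of 1087.13, 1012.45 and 1079.05. XBXL10_1g35445 had 818.64, 787.9 and 771.98 TPM at NF38 against 408.15, 441.71 and 433.05, and XBXL10_1g2209 had 331.34, 335.93 and 331.64 against 174.54, 172.51 and 173.55. For these 3 abundant members the control level was highest at NF33 and lower again at NF38.

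A smaller group of members was high in TPM but not in counts. The 27 tested members without a higher call had a median log2 fold change of 0.11 on counts, beside a median TPM difference of 1.22. Dividing counts by TPM within each library gives a relative transcript length, since TPM is a count per length. Among the 22 of these members with at least 10 counts in all 6 NF38 libraries, this length was lower in morphants by a log2 shift of 1.19 at the median, and all 22 were under -0.5. Of the 202 count-raised members with as many counts, 16 (7.92%) were under -0.5, and of 24430 genes with as many counts, 0.999% were. A TPM difference of at least 0.8 without a rise in counts entails a lower count per TPM. The shift in the 22 members is thus set by how they were picked and tests nothing. The choice on TPM also favours genes with a lower count per TPM among the count-raised members. Their 7.92% is therefore no test either.

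The 12 members with the largest NF38 difference hold 5 that were called higher on counts, 2 tested without a higher call and 5 with too few reads to test. XBXL10_1g37926 had 0.2, 34.91 and 0.32 TPM in morphants at NF38, from 16, 23 and 18 counts. XBXL10_1g18999 had 0.42, 0.59 and 23.96 TPM, from 28, 37 and 40 counts. In each, 1 library carried the TPM while the counts of the 3 libraries were alike. XBXL10_1g15322 had 30.94 TPM in 1 morphant library from 7 counts and at most 0.05 TPM in the others. XBXL10_1g16279, XBXL10_1g36811 and XBXL10_1g21651 rested on 3, 2 and 1 counts in 1 library, and XBXL10_1g3510 on 1 count in each of 2 libraries. These 7 had either similar counts in the 3 libraries or too few reads to test.

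**Figure D2:**
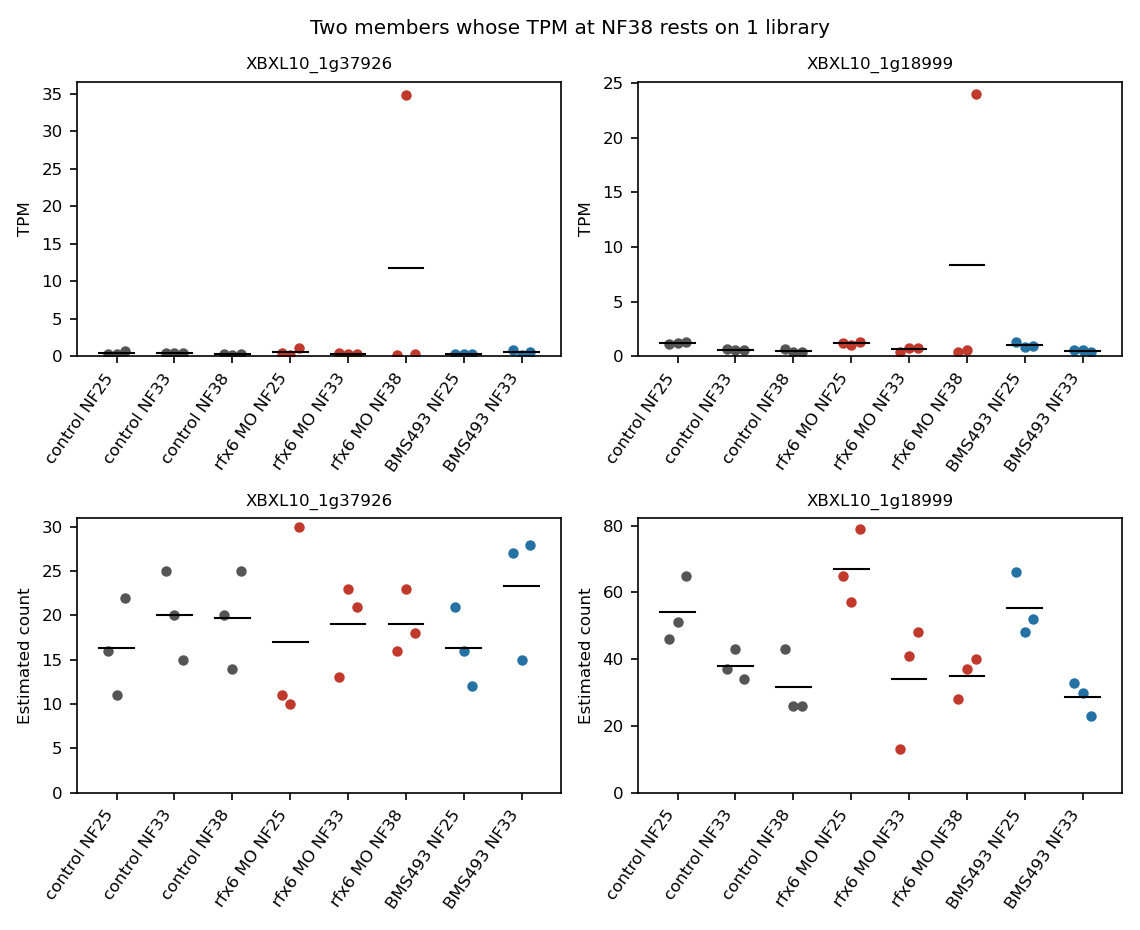
TPM (top) and estimated counts (bottom) of XBXL10_1g37926 and XBXL10_1g18999 in all 24 libraries, with a line at each group mean (n = 3). A single morphant NF38 library stands at 34.91 or 23.96 TPM, while its counts of 23 and 40 lie within the range of the other libraries.

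Some members further down the list also rested on 1 library. Over all 300 members, leaving out 1 morphant NF38 library brought the difference under 0.8 in 83, of which 35 were called higher on counts. It dropped under 0.1 in 30. The lowest member difference was 0.84 and the lower quartile 0.93, so a small change can bring a member under 0.8. In both members called lower on counts, 1 library carried the TPM. XBXL10_1g7290 had 27.49, 1.61 and 2.04 TPM in morphants at NF38 but 93, 96 and 139 counts, against 154, 117 and 143 in controls. XBXL10_1g42959 had 6.84, 173.25 and 8.33 TPM and a log2 fold change of -0.20 on counts. Among the members nearest the end of the list, XBXL10_1g28007 and XBXL10_1g3435 had a TPM difference of 0.84, as had the nearest genes left out, XBXL10_1g20778 and XBXL10_1g10474.

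**Figure D3:**
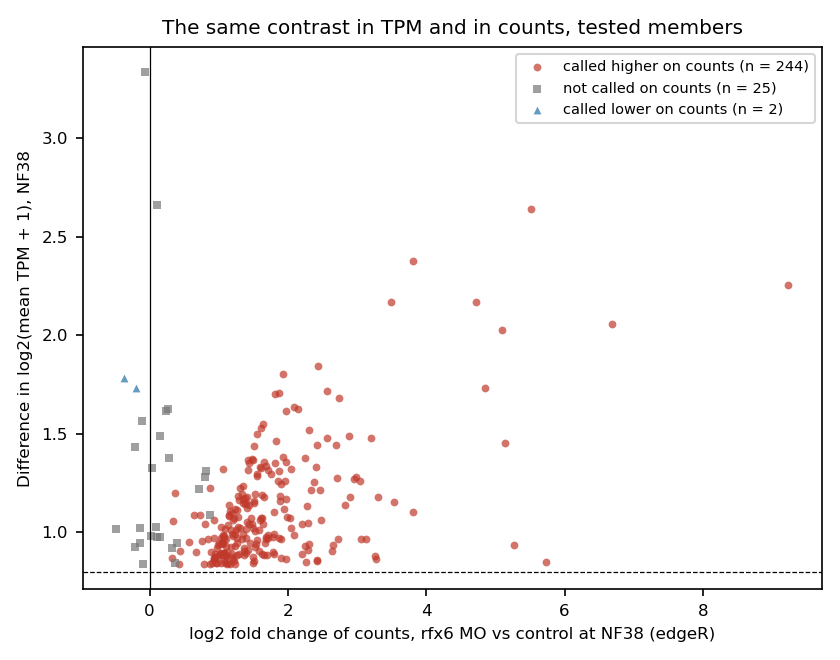
Each point is 1 of the 271 tested members, with the log2 fold change of counts between morphants and controls at NF38 on the x axis and the difference in log2(mean TPM + 1) on the y axis, where the dashed line is the limit of 0.8. The 244 members called higher spread to the right of 0, while the 27 others, up to the highest TPM difference in the plot, stand near 0 on counts.

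The constant control level that the rule asked for held on the log2(TPM + 1) scale, which compresses changes of low genes. The control range was 0.56 at the median member, against 0.33 over all 44478 genes listed. Only 28313 of these passed the count filter, and an almost silent gene has a small range on this scale. These medians thus do not show that members were less constant than other expressed genes. On counts, 81 of the 271 tested members (29.9%) changed by at least 2-fold between NF25 and NF38 controls, beside 40.3% of all genes tested. Of these, 64 went upward (23.9% of all genes) and 17 downward (16.4%). The name stage-constant thus fits the TPM + 1 scale but not the counts of these 81. Stage and the batch tag of the labels coincide, so a stage change and a batch change cannot be told apart.

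Many members were already somewhat higher in morphants at NF33, within the limit set by the rule. There 148 of 271 were called higher (25.5% of all genes) and 13 lower (24.3%), with 35 higher (6.63%) and 2 lower (5.64%) by at least 2-fold. The median log2 fold change was 0.45 for members and 0.01 for all genes. Summed over the 300 members, expression was 4240 ± 73.2 TPM in NF33 controls and 5991 ± 161 in NF33 morphants, and 3063 ± 22.7 and 7055 ± 140 TPM at NF38 (SD, n = 3). The 244 members count-raised at NF38 alone summed to 4138 ± 83.0 and 5895 ± 175 TPM at NF33. At NF38 they summed to 2972 ± 30.4 and 6707 ± 31.6 TPM. The rule asked for higher NF38 morphants, so the NF38 rise follows from the choice. Abundant members carried much of these sums. Without XBXL10_1g38818, XBXL10_1g35445 and XBXL10_1g2209, the other 297 summed to 2242 ± 35.1 and 3021 ± 43.2 TPM at NF33, and to 1871 ± 34.2 and 4404 ± 172 TPM at NF38. XBXL10_1g16380 went the other way at NF33, with 2.78, 3.47 and 3.03 TPM in morphants and 6.03, 6 and 5.89 in controls, before reaching 27.85, 30.07 and 30.57 against 8.76, 8.04 and 8.25 at NF38. In BMS493 explants at NF25, which the rule also read, 86 members were called higher (16.1% of all genes) and 25 lower (14.8%), with 25 higher (3.83%) and 8 lower (2.4%) by at least 2-fold.

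The rule did not read the morphants at NF25, so this contrast could be tested, with the reservation that the NF25 controls entered the rule. Members moved in both directions there, and by little at the median. By edgeR, 60 of 271 members (22.1%) were called higher and 23 (8.49%) lower, where 18% and 16.6% of all genes were. At 2-fold or more, 19 were higher (4.34% of all genes) and 4 lower (2.68%). The median log2 fold change was 0.10 for members, or 0.07 with the 22 members that had a group at 0 counts set at their bound, and 0.00 for all genes. Scaled by total counts alone the split was 41 higher and 38 lower, beside 11.9% and 25.3% of all genes, whose median then stood at -0.10. The filter on low counts read all 24 libraries, so members could pass it through the NF38 morphants, the group they were chosen for. With only the 6 libraries compared, 200 members were tested. Of these, 48 (24%) were called higher and 20 (10%) lower, beside 20.5% and 19% of all genes.

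The largest rises at NF25 were in members of low level. XBXL10_1g42025 was at 1.12, 1.91 and 2.06 TPM in morphants and 0.19, 0.33 and 0.44 in controls, and counts gave a log2 fold change of 2.59 ± 0.73 (SE), with an adjusted p of 0.0034 by edgeR. XBXL10_1g35809 was at 1, 1.42 and 2.09 TPM against 0.33, 0.76 and 0.11, for which the log2 fold change was 2.06 ± 0.44 (SE), with an adjusted p of 9.48e-05 by edgeR. In both the 3 morphant libraries lay above the 3 controls. XBXL10_1g25631 had 11 counts over the morphants and 0 over the controls, at least 3.30-fold higher (edgeR adjusted p = 0.00461).

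The calls of 3 more members depended on single libraries. XBXL10_1g5411 and XBXL10_1g21557 each had 14 counts in morphants and 1 in controls, a ratio of 12.6 with a counting interval from 1.92 to 532. Their edgeR adjusted p of 0.0161 and 0.0205 became 0.0716 and 0.0866 without control replicate 1. In NF38 morphants XBXL10_1g5411 had 74, 65 and 66 counts and XBXL10_1g21557 had 20, 12 and 23. Both passed the count filter only through these libraries, the group they were chosen for. Their NF25 calls thus give no support of their own. XBXL10_1g37342, with a log2 fold change of 2.06 and an edgeR adjusted p of 0.00499, likewise lost its call without control replicate 1, at 0.0685. Further losses were 0.0601 for XBXL10_1g5411 without control replicate 2, and 0.0921 and 0.0609 for XBXL10_1g21557 without control replicate 3 and morphant replicate 2.

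Among the members lowered most at NF25, some were higher in every morphant library at NF38. The rule chose all members for a higher mean TPM in NF38 morphants, so the opposite order at NF38 is set by that choice. XBXL10_1g42722 was at 6.03, 4.8 and 6.66 TPM in morphants and 13.79, 13.59 and 13.21 in controls at NF25, and its log2 fold change was -1.12 ± 0.09 (SE), with an adjusted p of 9.65e-17 by edgeR. Both groups lay apart, and at NF38 the order was the opposite, with 18, 20.44 and 18.85 TPM in morphants against 8.56, 9.39 and 7.93. XBXL10_1g1998 was at 0.17, 0.16 and 0.21 TPM against 0.74, 0.34 and 0.53 at NF25, giving -1.47 ± 0.42 (SE) as log2 fold change, with an adjusted p of 0.00371 by edgeR that became 0.0571 without control replicate 1. XBXL10_1g37804 fell by 0.92 on the log2 scale (SE 0.17, edgeR adjusted p = 7.44e-06). At NF38 its TPM was 5.52, 1.51 and 1.61 in morphants and 0.97, 1.24 and 1.02 in controls, from 158, 128 and 156 counts against 84, 94 and 94, a log2 fold change of 0.66 on counts. All 3 morphant libraries were above the controls there, and 1 was far higher than the others in TPM but not in counts. XBXL10_1g43145 had 1 count in morphants and 13 in controls at NF25 and was not called at NF38.

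BMS493 at NF33 was the other contrast that the rule did not read, though its NF33 controls entered the rule. More members were higher than the share over all genes. Most of those raised by 2-fold or more had under 1 TPM in NF33 controls, where the median of all 300 members was 1.39 TPM. The share of all genes under 1 TPM was not counted. By edgeR, 75 of 271 members (27.7%) were called higher and 44 (16.2%) lower, where 12.8% and 16.2% of all genes were. At 2-fold or more, 43 (15.9%) were higher and 9 (3.32%) lower, beside 4.17% and 3.1% of all genes. The median log2 fold change was nevertheless small, 0.09 for members (also with the 6 that had a group at 0 counts set at their bound) and -0.02 for all genes. Here too, members could pass the count filter through the NF38 morphants. With only the 6 libraries compared, 240 members were tested. Of these, 77 (32.1%) were called higher and 39 (16.2%) lower, beside 17.6% and 17.9% of all genes.

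**Figure D4:**
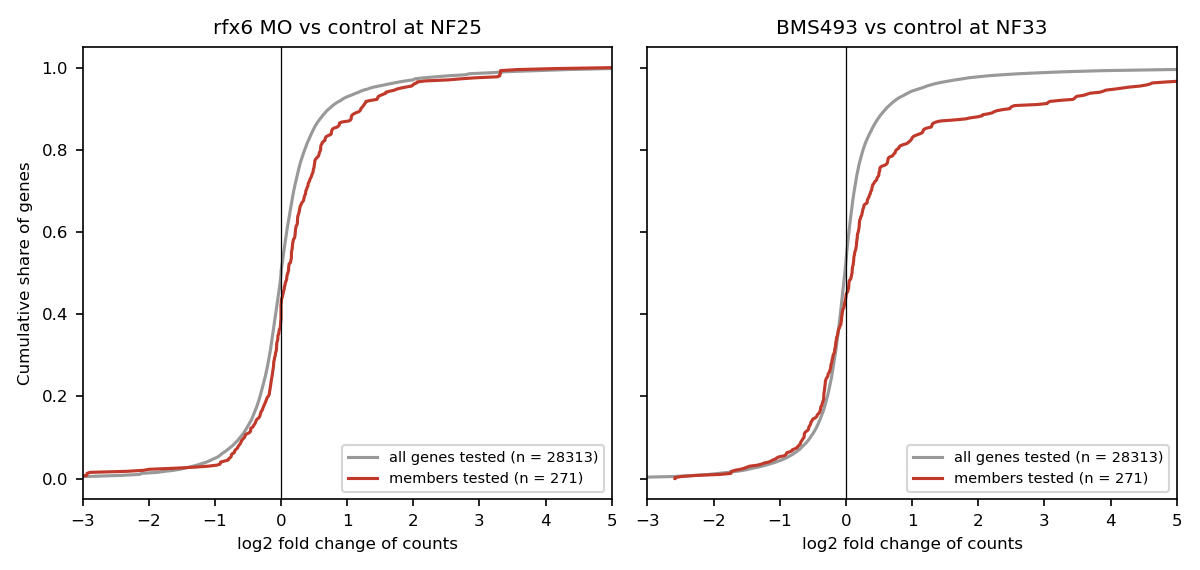
Cumulative share of genes by log2 fold change of counts, for the tested members (n = 271) and all genes tested (n = 28313), in morphants at NF25 and BMS493 explants at NF33; the x axis is limited to -3 to 5. At NF33 the curves run close together near 0 and the members' curve lies to the right in the upper part, where 15.9% of members and 4.17% of all genes were called at least 2-fold higher.

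Of the 43 members raised at least 2-fold by BMS493 at NF33, 42 were called higher in morphants at NF38 on counts, 37 had under 1 TPM in NF33 controls and 8 were called higher in morphants at NF25. The first count is close to fixed by the choice of members, since 90.0% of all tested members were called higher at NF38. The second has no share of all genes beside it. The last is 18.6%, beside 22.1% of all tested members and 18% of all genes. Their median level was 0.16 TPM in NF33 controls, 1.47 in BMS493 explants at NF33, 0.59 in NF38 controls and 2.93 in NF38 morphants. At NF33 the morphants had a median of 0.56 TPM. In 37 of the 43, the BMS493 NF33 mean was below the morphant NF38 mean. The choice of members favours this order, since rfx6 NF38 was the highest group for 229 of the 300 and BMS493 NF33 for 7. These groups also differ in stage and batch tag.

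XBXL10_1g3968 had 6, 5.62 and 5.85 TPM in BMS493 explants and 0, 0.13 and 0.09 in controls at NF33, and the log2 fold change was 6.13 ± 0.40 (SE), with an adjusted p of 2.08e-21 by edgeR. Its NF33 morphants, at 0.06, 0 and 0.09 TPM, stayed at the control level, and its NF38 morphants reached 4.89, 7.06 and 5.75 TPM. XBXL10_1g1049 had 2.24, 2.26 and 2.78 TPM against 0, 0 and 0.09, from 161 and 2 counts, a ratio of 81.0 (interval 22.1 to 675, edgeR adjusted p = 8.98e-14). Both members were high in every BMS493 NF33 library and in every morphant NF38 library, and near 0 in BMS493 explants at NF25.

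No count was found in the NF33 controls for 4 of the members raised most. XBXL10_1g25631 had 179 counts in BMS493 explants and was at least 60.0-fold higher, XBXL10_1g34714 had 174 and was at least 58.4-fold higher, XBXL10_1g36110 had 50 and was at least 16.8-fold higher, and XBXL10_1g2870 had 27 and was at least 9.06-fold higher. Of these, XBXL10_1g34714 and XBXL10_1g36110 had higher means in BMS493 explants at NF33 than in NF38 morphants. XBXL10_1g34714 was at 4.64, 3.11 and 5.15 TPM beside 2.51, 2.87 and 1.38, with no overlap. XBXL10_1g36110 was at 1.86, 3.04 and 2.4 TPM beside 1.04, 1.19 and 2.68, with overlap. XBXL10_1g2870 passed the count filter only with its NF38 morphant libraries, at 111, 65 and 87 counts, the group it was chosen for. XBXL10_1g1998, lower in NF25 morphants, was raised by BMS493 at NF33 to 5.36, 5.42 and 5.83 TPM from 0.27, 0.16 and 0.29 (log2 fold change 4.48, edgeR adjusted p = 7.35e-26). XBXL10_1g42722 was also higher there, with a log2 fold change of 1.34 (edgeR adjusted p = 8.15e-23).

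Members lowered by BMS493 at NF33 were 44 (16.2%, beside 16.2% of all genes), of which 9 (3.32%, beside 3.1%) by at least 2-fold. These shares were close to those of all genes, so they set the members apart in nothing. XBXL10_1g13561 was at 0.28, 0.62 and 0.45 TPM against 1.45, 1.29 and 1.06, and its log2 fold change was -1.51 ± 0.31 (SE), with an adjusted p of 6.09e-05 by edgeR. XBXL10_1g22092 was at 0.16, 0.11 and 0.05 TPM against 0.66, 0.37 and 0.64 (log2 fold change -2.29, edgeR adjusted p = 0.00551). Both were higher in NF38 morphants, as the rule required, at 3.89, 3.34 and 3.68 TPM and at 2.29, 2.58 and 2.17 TPM. XBXL10_1g9894 had 2 counts against 14 (ratio 6.96, interval 1.60 to 63.1, edgeR adjusted p = 0.0344). Its adjusted p was 0.137 and 0.143 without BMS493 replicates 1 and 3 and 0.23 without control replicate 1. XBXL10_1g18199 had an edgeR adjusted p of 0.048, which rose to between 0.0658 and 0.285 without any 1 of 5 of the 6 libraries compared, and its NF38 TPM of 0.07, 4.23 and 0.23 in morphants rested on 1 library.

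**Figure D5:**
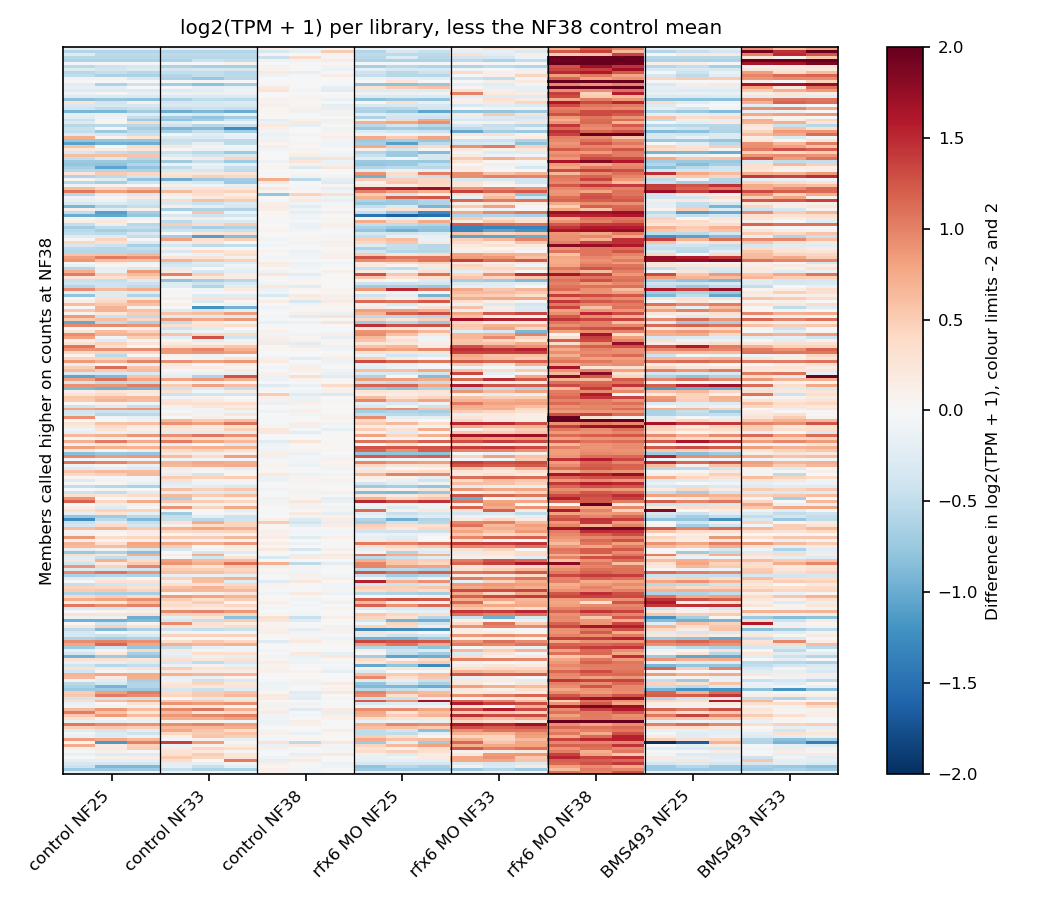
log2(TPM + 1) of the 244 count-raised members (lines) in the 24 libraries (columns), less the mean of the NF38 controls, ordered by the log2 fold change of BMS493 at NF33. The morphant NF38 block is high by choice of the members. The lines are ordered by a change against NF33 controls, while the values are set against NF38 controls. The BMS493 NF33 block thus need not follow the order of the lines, and values at NF25 and NF33 also hold the difference between stages.

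The contrasts at NF25 in morphants and at NF33 in BMS493 explants share no libraries. Called higher in both were 20 members (7.38%, against 4.08% of all genes), higher at NF25 and lower at NF33 were 10 (3.69% against 3.68%), lower and then higher 6 (2.21% against 2.38%), and lower in both 4 (1.48% against 3.49%). Members were also called higher more often in each contrast alone (22.1% and 27.7%, against 18% and 12.8% of all genes). Whether the joint calls exceeded what these single shares give was not tested. In neither were 109 members called (40.2%, against 50.0% of all genes). Of these, 91 were count-raised at NF38, which follows from the choice of members, since 90.0% of all tested members were. XBXL10_1g28315, XBXL10_1g30227 and XBXL10_1g27629 were of this kind. For XBXL10_1g27629 the edgeR adjusted p was 0.667 at NF25 and 0.16 at NF33, and for XBXL10_1g28315 it was 0.803 and 0.339. XBXL10_1g28315 had at most 2 counts in any library compared at NF25. XBXL10_1g30227 had no count there, and 5 in controls against 3 in BMS493 explants at NF33 (edgeR adjusted p = 0.726). Where reads are this few, the lack of a call does not show a lack of response.

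Some members had close identifiers, and the files do not say whether the numbers follow position in the genome. XBXL10_1g30227, XBXL10_1g30228 and XBXL10_1g30230 had means of 2.59, 1.84 and 2.32 TPM in NF38 morphants and at most 0.12 in NF38 controls. XBXL10_1g30497, XBXL10_1g30500 and XBXL10_1g30501 had 2.13, 2.28 and 2.66 TPM against 0.54, 0.49 and 0.53. XBXL10_1g2618 and XBXL10_1g2619 had equal TPM in all 24 libraries and cannot be counted as separate measurements.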

How the data were processed

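RNA was sequenced in 24 libraries, for which the labels' protocols name a kit that keeps strand. The authors deposited 1 table of estimated counts, stored as whole numbers, and 1 table of TPM, per the file headers. RSEM 1.3.0 and Bowtie2 appear in the submitters' processing notes, with no role given. The sources used here give no build, annotation or strand setting. For rfx6 NF33 replicates 2 and 3, the description also carries replicate 1's name, and the samples were mapped by library name and title.

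The members were found from the deposited TPM by the rule in the report. Counts were fitted with edgeR 4.0.16 in R 4.3.3 (filterByExpr with a minimum count of 10, TMM, robust quasi-likelihood fit, group as the only term) over all 24 libraries, with p-values adjusted over 28313 genes. SE is the log2 fold change divided by the square root of F. Intervals of count ratios are exact at 95% and cover counting error only, as do floors of 3 counts over a group. p-values measure the spread between pools of explants. The procedure was tested on simulated data. Alternatives used DESeq2 1.42.0 and limma 3.58.1 on log2(TPM + 1).

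The members and lists were chosen with earlier results of these data known. Named were the 12 members with the highest NF38 difference, the 6 highest and 4 lowest called members without overlap in each tested contrast, the 2 nearest on each side of the limit, and the 3 most abundant in NF38 controls. XBXL10_1g28315, XBXL10_1g13236, XBXL10_1g30227, XBXL10_1g27629, XBXL10_1g16380 and XBXL10_1g18691 come from a set of 14 chosen after values were seen, the first called higher on counts with morphants above all 9 control libraries. Members called lower at NF38 and members with close identifiers were also named after their values were seen.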

Additional observations from a re-analysis of the deposited data

Results flagged for a closer look

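In 7 named members, the 3 libraries of a treatment lay on one side of their controls at one stage and on the other side at another. Differences below are in log2(mean TPM + 1), treated less control. The rule set the higher side at NF38, and XBXL10_1g42722, XBXL10_1g1998 and XBXL10_1g37804 were named for being lower at NF25. These switches thus follow in part from the choice, and their share among all members or all genes was not counted. The change between stages was not tested, and stages differ in batch tag.

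XBXL10_1g42722 was lower in morphants at NF25 (-1.09) and higher at NF33 (0.34) and NF38 (1.06), and in BMS493 explants it was lower at NF25 (-0.60) and higher at NF33 (1.25). XBXL10_1g1998 was lower in morphants at NF25 (-0.38) and higher at NF33 (0.57) and NF38 (0.94). XBXL10_1g2209, the third most abundant member in NF38 controls, was at -0.17 at NF25, 0.50 at NF33 and 0.94 at NF38 in morphants, but on counts the NF25 decrease was not called (log2 fold change -0.08, edgeR adjusted p = 0.127). XBXL10_1g37804 was at -0.88 at NF25 and -0.21 at NF33, and at 0.90 at NF38. XBXL10_1g16380 was at -0.25 at NF25 and -0.77 at NF33, and at 1.71 at NF38, and its NF25 decrease was likewise not called on counts (log2 fold change -0.21, edgeR adjusted p = 0.0568). XBXL10_1g32488 was at -0.32 at NF33 and 2.17 at NF38 in morphants. XBXL10_1g13236 was at -0.25 at NF25 and 1.80 at NF38 in morphants, and in BMS493 explants at 0.51 at NF25 and -0.12 at NF33.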

How the results depend on the processing

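Members called higher in NF25 morphants numbered 60 by edgeR, and 39 and 37 by limma on log2 TPM with pseudocounts of 1 and 0.1. The edgeR count is 22.1% of 271 members, beside 18% of all genes, and the limma counts are 13.2% and 12.5% of 295 members, beside 12.2% and 11.6% of all genes, so the excess of members was smaller there. Members called lower in NF25 morphants numbered 23 by edgeR (16.6% of all genes), and 38 when libraries were scaled by total count (25.3% of all genes). The cause was not tested. The choice of members was the least stable value: 167 of the 300 met the rule when CPM (counts scaled for depth only) replaced TPM and 149 with a pseudocount of 0.1, under which 645 genes qualified instead of 344. Leaving out 1 library gave 45 to 58 members higher (15.5% to 17.7% of all genes) and 19 to 25 lower (12.9% to 14.2%) in NF25 morphants. With BMS493 at NF33 it gave 63 to 72 higher (10.8% to 11.3% of all genes) and 36 to 44 lower (13.3% to 14%). At NF38, which the rule read, it gave 240 to 244 higher (22.2% to 23.2% of all genes). Then 325 to 369 genes met the rule, and 265 to 300 members still met it. With a replicate block, 57 members were higher (17.9% of all genes) and 23 lower (16.5%) in NF25 morphants. With BMS493 at NF33, 74 were then higher (12.6% of all genes) and 42 lower (16.1%). Deviations of same-numbered libraries correlated by -0.04, -0.02 and -0.01 between morphants and controls at NF25. Between BMS493 explants and controls at NF33 they correlated by 0.05, 0.02 and 0.02. No pairing by replicate number was seen in these contrasts, but whether same-numbered pools shared parents is not known. Of the alternatives for single named genes, 27 lost the call, 261 kept it and 0 reversed the direction. XBXL10_1g18199 was the member that lost it most often. Low counts limit the 29 untested members.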
